A study of Mus musculus with 9 samples.

Results

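The genes described here encode the subunits of the respiratory chain and the ATP synthase, taken from both genomes of the cell. They are the rows of the gene table whose symbols belong to the Nduf, Sdh, Uqcr, Cox4 to Cox8, Atp5 and mt- families. In all 109 of 21930 rows matched, and 106 had 10 or more counts in at least 3 of the 9 libraries, of which 93 are nuclear genes and 13 are the protein genes of the mitochondrial genome. The 3 rows left out were a second row named Atp5o without a read and the isoform genes Cox7b2 and Cox8c. All 106 genes passed the low-count filter and were among the 15636 genes tested.

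Lungs of male C57BL/6 mice aged 6 to 8 weeks, as the labels describe them, were sequenced in 3 groups of 3 libraries each. The first group received lipopolysaccharide (LPS, a bacterial wall component used to induce acute lung injury) in the trachea at 2 mg/kg and then, from the next day, a daily gavage of RSBD, the herbal formula Renshen Baidu Powder given as a decoction. The second group received LPS and vehicle, and the control group received saline in place of LPS. Lungs were taken on day 5 after LPS, so each library mixes all cells of the organ at a single time. Nothing in the labels says that every library came from a separate animal, and p-values measure the spread between these libraries. The comparisons address the response of the lung to LPS and the effect of RSBD given after it.

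The respiratory chain passes electrons from NADH and succinate through complexes I and II to ubiquinone, then through complex III and cytochrome c to complex IV, which reduces oxygen. Complexes I, III and IV pump protons across the inner mitochondrial membrane, and complex V uses the return flow to make ATP. Complex II is built from nuclear genes alone, whereas the other complexes join subunits from the nuclear and the mitochondrial genome, so that their supply depends on transcription in both compartments. In the lung, surfactant secretion, ciliary beating and the metabolic state of macrophages draw on this pathway.

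Total counts per library ranged from 26959662 to 36113905. The 10 listed lung epithelial markers were present in every library at a summed level of 28302 to 52216 CPM, the read count relative to library size after TMM normalization, the unit used for levels unless TPM is named. Reads from chromosome Y numbered 7511 to 10918 in the LPS plus RSBD and LPS libraries but 6, 7 and 9 in the control libraries, although the labels give all 9 mice as male. Every comparison with control is therefore also one of libraries with and without Y transcripts, and treatment and this difference cannot be told apart. Values are given for libraries 1, 2 and 3 of a group in that order (n = 3 per group), and fold changes are log2 from edgeR. Their standard error was derived as the absolute log2 fold change divided by the square root of edgeR's quasi-likelihood F statistic. An adjusted p is a Benjamini-Hochberg value over all genes tested, and a gene is said to rise or fall where it is under 0.05.

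The 13 protein genes of the mitochondrial genome lie so close together that 3 neighbouring pairs share bases, which touches how their reads can be assigned. The pair with the longest overlap is shown because mt-Atp8 is among the genes that rose after LPS and its reads over these bases cannot be told from those of mt-Atp6. The shared 43 bases, chrM:7927-7969 on GRCm38 (mm10), carry in capitals the start codon of mt-Atp6 and the stop codon of mt-Atp8:
mt-Atp8 and mt-Atp6, overlap: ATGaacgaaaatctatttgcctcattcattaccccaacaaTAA
The genes mt-Nd4l and mt-Nd4 share 7 bases (chrM:10167-10173), and mt-Nd5 and mt-Nd6, which lie on opposite strands, share 14 bases (chrM:13552-13565).

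For the nuclear genes, 250 bases upstream of each RefSeq start on GRCm38.p6 were searched on both strands for motifs of factors known to control respiratory genes. RefSeq held windows for 75 of the 93 nuclear genes, 80 windows in all. The motif of nuclear respiratory factor 1 was present in 15 of the 80 windows (18.8%), compared with 3.74% of the 32851 windows of all genes. The ETS motif CCGGAAG, bound by the GABP family, was present in 14 windows (17.5%), compared with 6.91% of all windows. The YY1 motif was found in a single respiratory window, 1 of 80 (1.25%), and in 0.301% of all windows. GGGCGG, bound by SP1, was found in 37.5% of respiratory and 32.7% of all windows. CCAAT was found in 42.5% of respiratory and 33.8% of all windows, and TATAAA in 8.75% of respiratory and 12.4% of all windows. Median GC content was 57.4% in the respiratory windows and 52.4% in all windows, so base composition differed along with these shares. A match describes the letters only and shows no binding.

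The windows of 7 genes are printed. Of the genes that changed after LPS and had a single window, these are all with at most 4 bases inside the deposited table's gene model. Genes with several windows were left out. Ndufaf4 was the single gene that fell, and the other 6 rose, among them Ndufb8, which had the smallest p-value with RSBD. Capitals mark the nuclear respiratory factor 1 motif in Ndufaf4 (bases -113 to -104 from the start) and the ETS motif in Atp5e (-102 to -96) and Ndufb6 (-232 to -226), while Ndufb8, Ndufa1, Ndufv3 and Ndufs8 had no match to either.
Ndufaf4, chr4:24897833-24898082, plus strand: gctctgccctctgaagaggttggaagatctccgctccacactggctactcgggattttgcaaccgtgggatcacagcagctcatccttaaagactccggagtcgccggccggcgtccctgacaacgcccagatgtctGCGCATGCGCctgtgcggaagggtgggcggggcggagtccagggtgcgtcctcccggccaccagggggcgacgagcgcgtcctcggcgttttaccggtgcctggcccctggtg
Atp5e, chr2:174464102-174464351, minus strand: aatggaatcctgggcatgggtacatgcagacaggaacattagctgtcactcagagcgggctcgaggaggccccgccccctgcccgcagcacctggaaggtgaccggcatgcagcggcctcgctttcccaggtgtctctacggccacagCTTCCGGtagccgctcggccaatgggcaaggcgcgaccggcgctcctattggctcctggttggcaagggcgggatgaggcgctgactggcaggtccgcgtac
Ndufb6, chr4:40279422-40279671, minus strand: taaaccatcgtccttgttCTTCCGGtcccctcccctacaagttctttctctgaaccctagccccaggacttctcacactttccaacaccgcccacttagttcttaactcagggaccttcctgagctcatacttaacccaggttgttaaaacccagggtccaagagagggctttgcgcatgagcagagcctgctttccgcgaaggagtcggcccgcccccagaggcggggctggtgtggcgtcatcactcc
Ndufb8, chr19:44555443-44555692, minus strand: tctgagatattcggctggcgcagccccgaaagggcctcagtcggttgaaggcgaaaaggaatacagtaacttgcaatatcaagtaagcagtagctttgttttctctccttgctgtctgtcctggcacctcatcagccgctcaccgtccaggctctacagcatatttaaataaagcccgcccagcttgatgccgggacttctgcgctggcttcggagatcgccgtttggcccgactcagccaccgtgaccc
Ndufa1, chrX:37191239-37191488, minus strand: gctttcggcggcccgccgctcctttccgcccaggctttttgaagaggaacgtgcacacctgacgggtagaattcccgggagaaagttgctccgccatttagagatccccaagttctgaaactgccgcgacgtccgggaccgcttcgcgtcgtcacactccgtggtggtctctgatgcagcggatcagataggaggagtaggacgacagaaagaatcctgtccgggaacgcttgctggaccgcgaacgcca
Ndufv3, chr17:31519865-31520114, plus strand: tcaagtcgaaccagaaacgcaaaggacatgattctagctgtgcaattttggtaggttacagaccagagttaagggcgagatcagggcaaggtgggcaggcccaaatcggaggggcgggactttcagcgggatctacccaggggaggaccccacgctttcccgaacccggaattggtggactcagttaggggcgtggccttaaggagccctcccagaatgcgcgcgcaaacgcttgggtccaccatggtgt
Ndufs8, chr19:3912775-3913024, minus strand: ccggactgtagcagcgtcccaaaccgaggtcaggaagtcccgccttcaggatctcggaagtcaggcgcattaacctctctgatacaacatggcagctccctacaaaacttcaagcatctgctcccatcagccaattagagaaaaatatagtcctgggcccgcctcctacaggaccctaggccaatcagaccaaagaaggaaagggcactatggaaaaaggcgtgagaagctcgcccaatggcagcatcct
Among the 17 windows of genes that rose after LPS, 3 held the nuclear respiratory factor 1 motif and 3 the ETS motif, 17.6% each, close to the shares of all respiratory windows.

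TPM, the deposited unit that accounts for length, were used to rank the genes by level. Most mitochondrial mRNAs stood far above the nuclear ones, led by mt-Co1, the catalytic subunit of complex IV, with a median of 13384 TPM over the 9 libraries, and by mt-Cytb, the cytochrome of complex III, with 6239 TPM. The complex I genes mt-Nd1, mt-Nd2, mt-Nd4, mt-Nd4l, mt-Nd5 and mt-Nd6 lay between 2075 and 2452 TPM, so close that their order is not read here. Lower levels were listed for 2 genes by this measure, mt-Atp8 at 330.3 TPM and mt-Nd3 at 54.3 TPM. The 204 bases of mt-Atp8 include the 43 shared with mt-Atp6, at 3393 TPM. Its value thus depends on how those reads were assigned and is not read as a lower mRNA level.

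Nuclear genes of complexes IV and V had the highest medians, 138 TPM over 18 genes and 154 TPM over 17 genes. Complexes III and II followed with medians of 99.2 and 97.3 TPM, complex I with 62.6 TPM over 37 subunit genes, and the 8 Ndufaf assembly factors of complex I with 14.3 TPM. The highest nuclear gene was Cox4i1, the ubiquitous isoform of subunit 4 of complex IV, at 396 TPM, followed by Atp5b, the catalytic beta subunit of complex V, at 385 TPM. At the low end stood Cox7a1, the isoform of heart and skeletal muscle, at 4.09 TPM.

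In LPS lungs 24 of the 106 genes rose (22.6%) and 1, Ndufaf4, fell, compared with control lungs, while 8.79% of all genes tested rose, 8.63% fell and 17.4% changed in either direction. The log2 fold change lay above 0 for 87 of the 93 nuclear genes, with a median of 0.31, and for 13 of the 13 mitochondrial genes, with a median of 0.49. Over all genes tested 49.4% lay above 0 and the median was -0.0065. With limma on TPM the split of calls was 711 higher and 1338 lower over all genes, against 1374 and 1349 with edgeR, and 19 higher and 1 lower among the respiratory genes. In this bulk tissue, a change in the number of cells of a type and a change in RNA per cell cannot be told apart. The 3 LPS libraries lay above the 3 control libraries for 36 genes (34.0%) and below them for 1, against 18.6% and 19.5% of all genes.

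**Figure D1:**
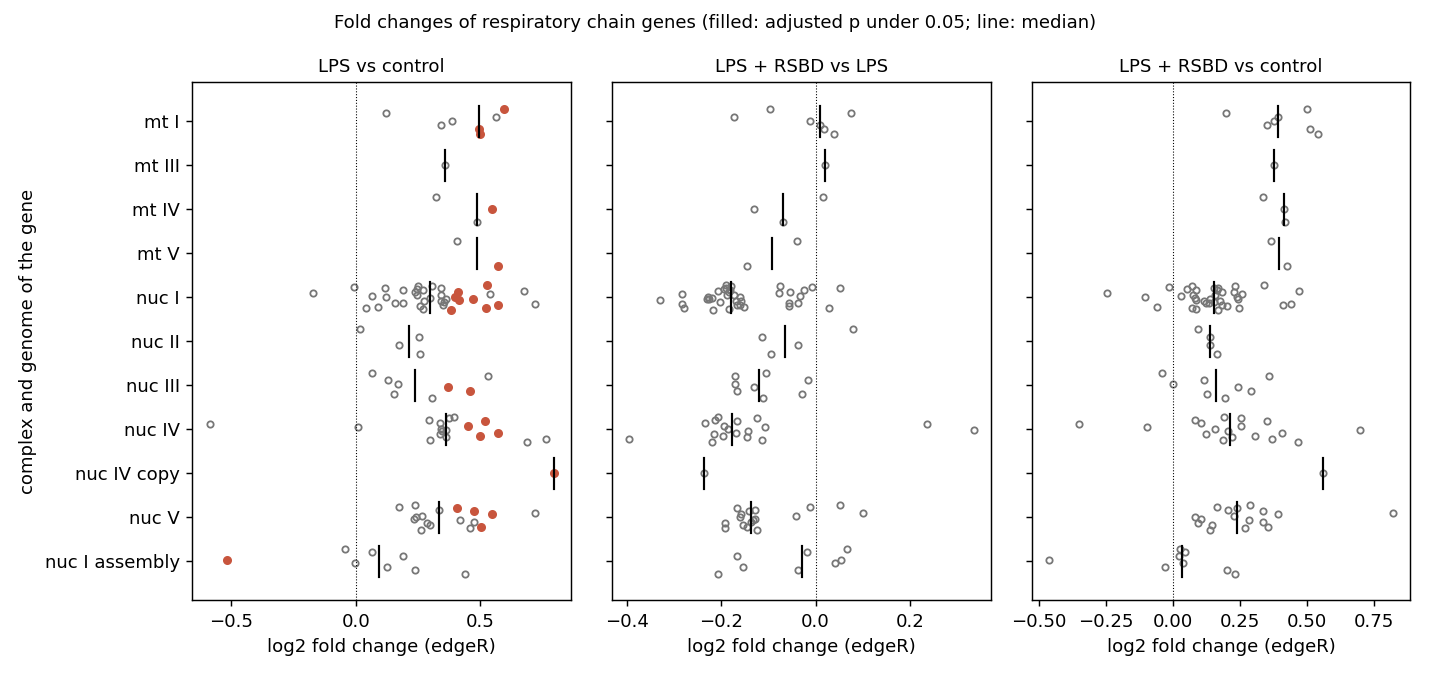
Log2 fold change (x axis) of each of the 106 genes by complex and genome (y axis) in 3 comparisons; filled points have an edgeR adjusted p under 0.05, lines are medians, and the x axes differ in range. After LPS most points lie right of 0 and 25 are filled; with RSBD against LPS no point is filled and the nuclear median is -0.16.

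The 3 LPS libraries did not behave alike. The median deviation of the 93 nuclear genes from their mean over the 9 libraries was -0.14, 0.30 and 0.28 in LPS libraries 1, 2 and 3, against -0.099, -0.22 and -0.15 in control libraries. LPS library 1 thus lay among the controls, and the higher nuclear levels came from LPS libraries 2 and 3. The same median was 0.074, -0.0039 and 0.012 in the LPS plus RSBD libraries, and over all genes it stayed between -0.019 and 0.012 in every library. Without LPS library 1, 66 of the 106 genes rose (62.3%) and 2870 of all genes changed; without LPS library 2 only Uqcrfs1 rose and 786 of all genes changed. Leaving out control library 1, 2 or 3 or LPS library 3 gave 11, 1, 2 and 4 calls, against 25 with all libraries.

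**Figure D2:**
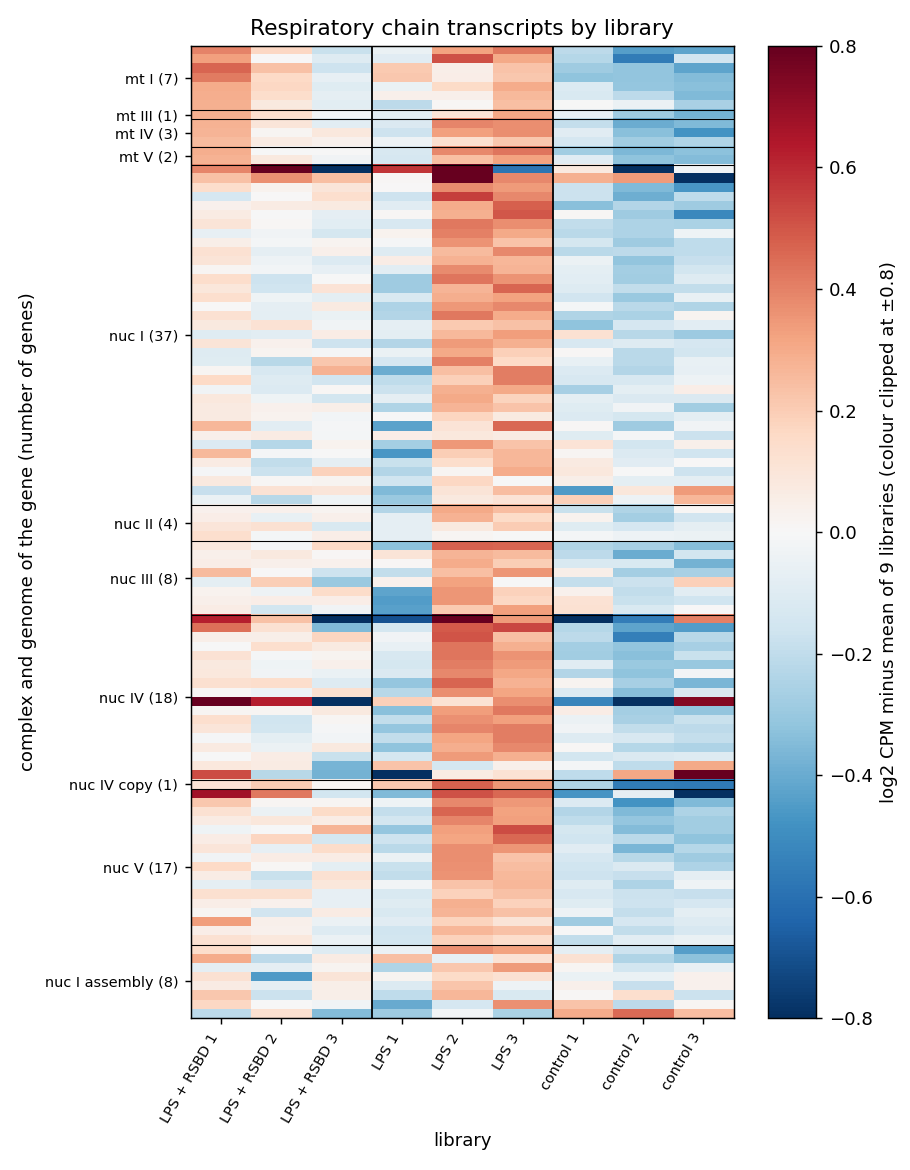
Level of each of the 106 genes (rows, grouped by genome and complex and sorted by the change after LPS) in the 9 libraries (columns), as log2 CPM minus the mean of the 9 libraries, with red above and blue below the mean. LPS libraries 2 and 3 are red in most rows, LPS library 1 is pale or blue in many nuclear rows, and the 3 control libraries are mostly blue.

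Other measures moved with the same comparison. The 15 listed alveolar macrophage markers summed to 2163, 4173 and 3370.2 CPM in LPS libraries, against 1588, 1497 and 1888 CPM in control libraries; 7 of 15 rose, and all 15 passed the low-count filter. Of 13 monocyte and macrophage markers 5 rose, with sums of 6560.0 to 9168 CPM after LPS and 5599 to 6140.4 CPM in control lungs. Erythroid genes summed to 4653 to 8552 CPM after LPS and 548 to 4406 CPM in control lungs. Of 15 cell cycle genes 7 rose, of 10 T and NK cell markers 5 rose, and of 12 markers of ciliated cells 7 fell. Neutrophil markers, of which 2 of 11 rose, summed to 2457 to 6798 CPM after LPS and 647 to 2064 CPM in control lungs, and endothelial markers, of which 2 of 6 rose, to 2362 to 2602 CPM after LPS and 2006 to 2068 CPM in control lungs. LPS library 1 had the lowest nuclear respiratory levels of its group. It also had the group's lowest sums of macrophage, erythroid, cardiac muscle and lung epithelial markers, the last at 28302 CPM. In the LPS plus RSBD group, library 1 had the lowest alveolar macrophage sum, 1218 CPM, but the highest nuclear median, 0.074. The part of cell composition in the result was not tested.

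**Figure D3:**
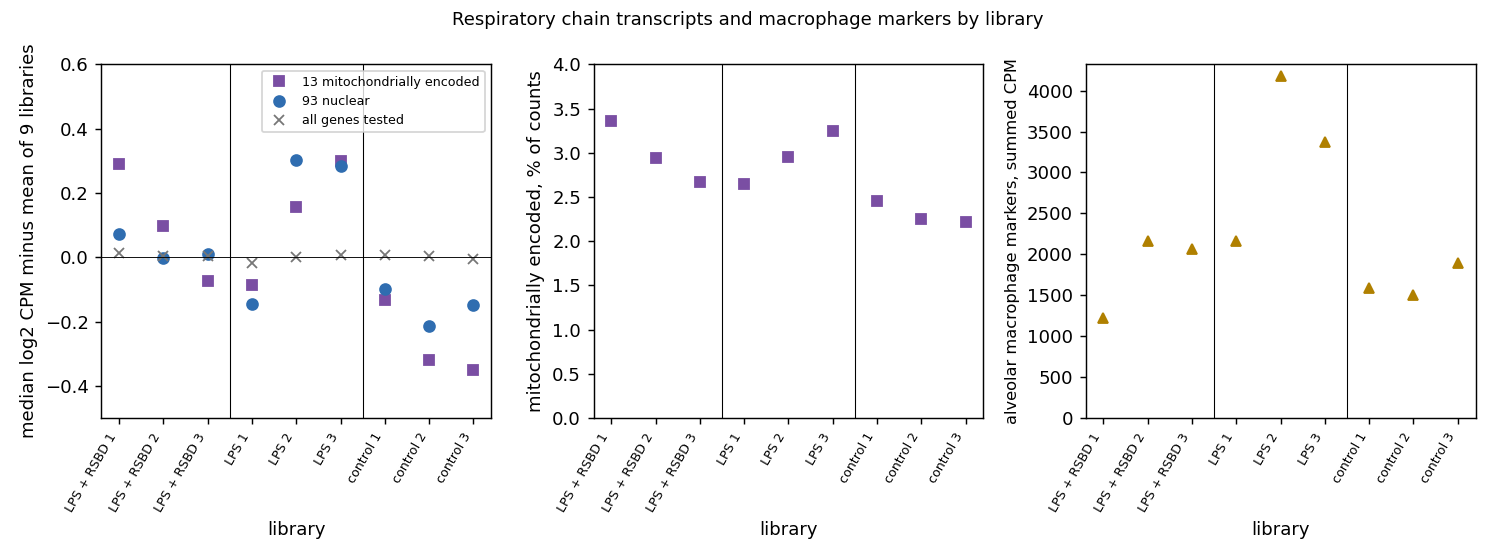
For each library (x axis), the median log2 CPM minus the mean of 9 libraries for the 13 mitochondrial genes, the 93 nuclear genes and all genes tested (left), mitochondrial mRNA as a percentage of counts (middle), and the summed CPM of 15 alveolar macrophage markers (right). LPS libraries 2 and 3 lie highest for the nuclear genes and the macrophage markers, and all genes tested stay near 0.

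Transcript length also moved with this comparison, and most respiratory transcripts are short. Over all genes the median log2 fold change after LPS was 0.19 for 363 genes with a median transcript of up to 500 bases, 0.043 for 4904 genes of 500 to 1000 bases, 0.0082 for 4615 genes of 1000 to 2000 bases, -0.051 for 4571 genes of 2000 to 4000 bases and -0.10 for 1169 longer genes. Nuclear respiratory genes of the first 3 classes had medians of 0.42, 0.29 and 0.25 (23, 60 and 7 genes), each above that of all genes of like length. With a fit that allows for length, chosen after seeing the data, 18 genes were called, and the medians were 0.23 for nuclear and 0.36 for mitochondrial genes.

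**Figure D4:**
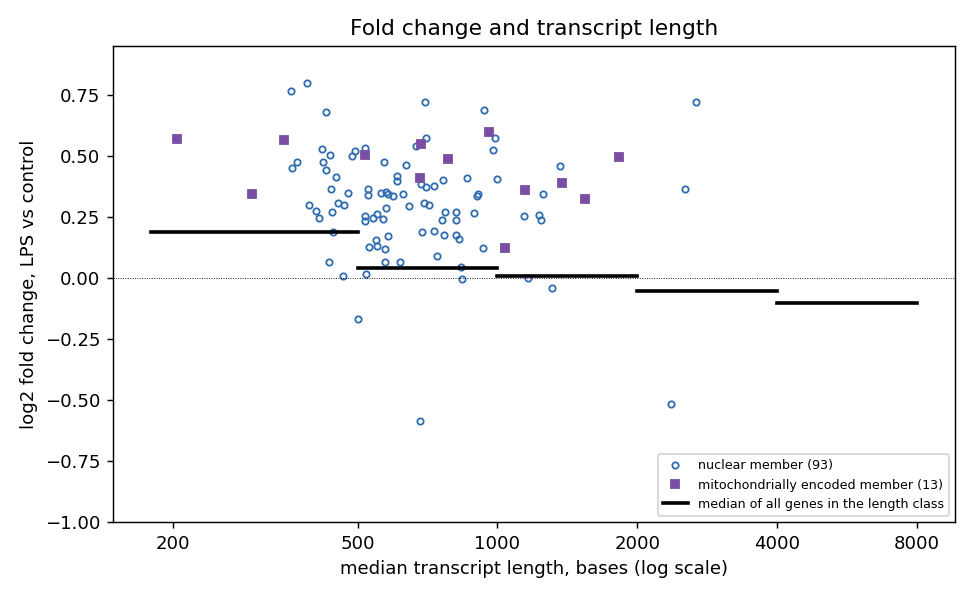
Log2 fold change of LPS against control (y axis) by the gene's median transcript length in bases (x axis, log scale) for 93 nuclear and 13 mitochondrial genes; black bars are medians of all genes tested in 5 length classes. The bars run from 0.19 in the shortest to -0.10 in the longest class, and most respiratory genes lie above the bar of their class.

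Complex I, which oxidizes NADH, had 8 of 37 nuclear subunit genes higher after LPS and none lower (median 0.30). Ndufs4, an accessory subunit needed for a stable enzyme (ENSMUSG00000021764, chr13:114287795-114388258, minus strand), had 33.7, 43.7 and 42.5 CPM in LPS libraries, against 29.9, 26.4 and 24.4 CPM in control libraries. Its groups did not overlap, LPS libraries 2 and 3 were the highest, and the log2 fold change was 0.57 ± 0.12 (edgeR adjusted p = 0.0135). Ndufa8, an accessory subunit of the membrane arm (ENSMUSG00000026895, chr2:36036326-36049406, minus strand), had 35.7, 46.1 and 41.9 CPM in LPS libraries, against 32.5, 29.4 and 31.2 CPM in control libraries, a change of 0.41 ± 0.10 (edgeR adjusted p = 0.0267). Ndufa1, a small X-linked accessory subunit (ENSMUSG00000016427, chrX:37187588-37191163, minus strand), had 19.6, 25.6 and 29.0 CPM in LPS libraries, against 16.5, 17.7 and 17.2 CPM in control libraries, a change of 0.53 ± 0.14 (edgeR adjusted p = 0.0293). In both genes every LPS library stood above every control library. The X-linked Ndufb11 did not pass the test, with 0.34 ± 0.15 (edgeR adjusted p = 0.135).

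Ndufb8, an accessory subunit of the membrane arm (ENSMUSG00000025204, chr19:44548572-44555440, minus strand), had 46.5, 60.2 and 56.2 CPM in LPS libraries, against 39.3, 38.5 and 44.4 CPM in control libraries, a change of 0.42 ± 0.11 (edgeR adjusted p = 0.0294). Its LPS library 1 was only slightly above control library 3. The other nuclear subunits that rose were Ndufv3, an accessory part of the NADH-binding module, with 0.38 (adjusted p = 0.0372), the core iron-sulphur subunit Ndufs8 with 0.53 (adjusted p = 0.0411), and the membrane arm subunits Ndufb6 with 0.47 (adjusted p = 0.0443) and Ndufb3 with 0.40 (adjusted p = 0.0464). Ndufs8 rose although its groups touched, with 32.7, 39.5 and 45.8 CPM in LPS libraries and 32.7, 26.6 and 22.7 CPM in control libraries. The transcript of Ndufb6 overlaps Smim27 on the opposite strand, and reads of that stretch may belong to either gene. The core genes Ndufs1, Ndufs7, Ndufv1 and Ndufv2 did not pass the test, with log2 fold changes of 0.16, 0.091, 0.044 and 0.27.

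Of the 8 Ndufaf genes, which encode assembly factors and no subunits, none rose and 1 fell by edgeR, DESeq2 and limma, with 1 higher and 1 lower at an unadjusted edgeR p under 0.05 (median 0.096). Ndufaf4, which acts early in complex I assembly (ENSMUSG00000028261, chr4:24898083-24905001, plus strand), had 14.2, 17.0 and 14.5 CPM in LPS libraries, against 21.2, 23.7 and 20.5 CPM in control libraries. All 3 LPS libraries lay below the 3 control libraries, and the change was -0.52 ± 0.15 (edgeR adjusted p = 0.0383). Its call was lost in 7 of 9 fits that left out a library, with edgeR adjusted p-values of up to 0.124, and held in the 11 other alternatives. The calls of mt-Nd6, Cox6b1, Ndufb6, Atp5mpl and Ndufb3, which rose, were lost in as many of these 9 fits. The remaining 7 Ndufaf genes ranged from -0.041 for Ndufaf1 to 0.44 for Ndufaf8 and did not pass the test. Ndufaf4 stayed near the LPS level in LPS plus RSBD libraries, with 14.9, 18.9 and 13.6 CPM.

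Complex I genes of the mitochondrial genome encode proton-pumping core subunits, and 3 of 7 rose after LPS. The gene mt-Nd5 (ENSMUSG00000064367, chrM:11742-13565, plus strand) had 2699, 2402 and 2698 CPM in LPS libraries, against 1853, 1863 and 1821 CPM in control libraries. The controls lay within a narrow band below all LPS libraries, and the change was 0.49 ± 0.13 (edgeR adjusted p = 0.0310). For mt-Nd1 (ENSMUSG00000064341, chrM:2751-3707, plus strand) the levels were 1117, 1447 and 1548 CPM in LPS libraries, against 1003, 853 and 863 CPM in control libraries, a change of 0.60 ± 0.17 (edgeR adjusted p = 0.0376). The light-strand gene mt-Nd6 (ENSMUSG00000064368, chrM:13552-14070, minus strand) had 812, 727 and 822 CPM in LPS libraries, against 578, 564 and 526 CPM in control libraries, a change of 0.50 ± 0.15 (edgeR adjusted p = 0.0411). Whether counting used the strand is not given in the sources used here, so reads of mt-Nd6 and of transcripts antisense to it cannot be told apart; its counts were 28.3% to 31.9% of those of mt-Nd5 in the 9 libraries.

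The other 4 did not pass the test. They were mt-Nd3 at 0.57 ± 0.19 (edgeR adjusted p = 0.0689), mt-Nd4 at 0.39 ± 0.14 (edgeR adjusted p = 0.0764), mt-Nd4l at 0.34 ± 0.11 (edgeR adjusted p = 0.0631) and mt-Nd2 at 0.12 ± 0.14 (edgeR adjusted p = 0.577). The lowest of them, mt-Nd2, had 1166, 1356 and 1591 CPM in LPS libraries, against 1346, 1304 and 1125 CPM in control libraries, with overlapping groups.

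Complex II, or succinate dehydrogenase, links the chain to the citric acid cycle. None of its 4 genes passed edgeR's test after LPS, nor DESeq2's or limma's, 1 had an unadjusted p under 0.05, and the median was 0.22. Sdhb, the iron-sulphur subunit, had 56.1, 71.6 and 65.7 CPM in LPS libraries, against 60.2, 48.9 and 53.2 CPM in control libraries, with 0.25 ± 0.11 (edgeR adjusted p = 0.128). Sdhd and Sdhc, the membrane anchors, had changes of 0.26 ± 0.13 and 0.18 ± 0.096 (edgeR adjusted p = 0.194 and 0.219). Sdha, the flavoprotein that oxidizes succinate, had 207, 219.7 and 216 CPM in LPS libraries, against 215, 211 and 210.2 CPM in control libraries. Its groups overlapped and its change was 0.016 ± 0.074 (edgeR adjusted p = 0.903), with the opposite sign, -0.10, in TPM.

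Complex III passes electrons from ubiquinol to cytochrome c, and 2 of its 8 nuclear genes rose (median 0.24). Uqcrfs1, the Rieske iron-sulphur subunit (ENSMUSG00000038462, chr13:30540308-30545362, minus strand), had 80.0, 89.6 and 88.5 CPM in LPS libraries, against 64.4, 56.4 and 67.1 CPM in control libraries. The groups were well apart, and the change of 0.46 ± 0.086 (edgeR adjusted p = 0.00958) was the only call of the 25 that held in all 9 fits without a library and in the 11 other alternatives. Uqcrc2, a core subunit on the matrix side (ENSMUSG00000030884, chr7:120635176-120659524, plus strand), had 108, 131 and 122 CPM in LPS libraries, against 98.3, 98.4 and 82.3 CPM in control libraries, a change of 0.37 ± 0.098 (edgeR adjusted p = 0.0300). It shares 507 bases with Pdzd9 on the opposite strand. Uqcr11 came next at 0.53 ± 0.18 (edgeR adjusted p = 0.0714), and Uqcr10 was the lowest of the family at 0.066 ± 0.17. The mitochondrial gene mt-Cytb had 3824, 4371 and 5033 CPM in LPS libraries, against 3869, 3327 and 3118 CPM in control libraries. LPS library 1 lay just below control library 1, and the change was 0.36 ± 0.14 (edgeR adjusted p = 0.108).

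Complex IV, cytochrome c oxidase, had 4 of 18 nuclear subunit genes higher after LPS (median 0.36). Cox5b, a zinc-binding subunit (ENSMUSG00000061518, chr1:36691449-36693681, plus strand), had 52.7, 73.9 and 66.8 CPM in LPS libraries, against 45.4, 44.1 and 45.5 CPM in control libraries. The control values were close together, all LPS libraries were higher, and the change was 0.52 ± 0.11 (edgeR adjusted p = 0.0165). Its processed copy Cox5b-ps, which matches it at 99.2% over 390 bases, carried 5.08% to 7.54% as many counts and also rose, by 0.80 ± 0.21 (edgeR adjusted p = 0.0298). Reads of these 2 genes may be exchanged, so they are not counted as separate observations.

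Cox7a2l, known for joining complexes III and IV into supercomplexes (ENSMUSG00000024248, chr17:83501918-83517330, minus strand), had 135, 195 and 162 CPM in LPS libraries, against 119, 94.1 and 118 CPM in control libraries, a change of 0.57 ± 0.14 (edgeR adjusted p = 0.0225). The small subunits Cox7c and Cox6b1 rose by 0.50 (adjusted p = 0.0298) and 0.45 (adjusted p = 0.0441), with control library 1 above LPS library 1 for Cox6b1. In the mitochondrial genome, mt-Co2, which receives electrons from cytochrome c (ENSMUSG00000064354, chrM:7013-7696, plus strand), had 805, 1144 and 1130.1 CPM in LPS libraries, against 764, 662 and 682 CPM in control libraries, a change of 0.55 ± 0.15 (edgeR adjusted p = 0.0360). The catalytic mt-Co1 had 11275, 12664 and 13437 CPM in LPS libraries, against 10554, 9532 and 9803 CPM in control libraries, with 0.32 ± 0.13 (edgeR adjusted p = 0.105). For mt-Co3 the change was 0.49 ± 0.16 (edgeR adjusted p = 0.0613), so that neither of them passed the test.

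Complex V makes ATP, and 4 of its 17 nuclear genes rose, with all 17 above 0 (median 0.33). Atp5g2 encodes the c subunit of the rotating ring (ENSMUSG00000062683, chr15:102662864-102672352, minus strand) and had 59.1, 79.0 and 77.1 CPM in LPS libraries, against 56.2, 43.5 and 47.5 CPM in control libraries. The groups did not overlap, LPS library 1 was closest to the controls, and the change was 0.55 ± 0.13 (edgeR adjusted p = 0.0236). Atp5c1, the gamma subunit of the central stalk (ENSMUSG00000025781, chr2:10056016-10080510, minus strand), had 114, 153 and 139 CPM in LPS libraries, against 108, 101 and 97.4 CPM in control libraries, a change of 0.41 ± 0.10 (edgeR adjusted p = 0.0285). Atp5e, the epsilon subunit of the same stalk (ENSMUSG00000016252, chr2:174461072-174464105, minus strand), had 58.4, 84.8 and 81.2 CPM in LPS libraries, against 56.2, 52.0 and 53.2 CPM in control libraries, a change of 0.48 ± 0.12 (edgeR adjusted p = 0.0300). Atp5mpl, a small membrane subunit, rose by 0.50 (adjusted p = 0.0449). The catalytic subunits Atp5b and Atp5a1 did not pass the test, with 0.18 ± 0.10 and 0.24 ± 0.12 (edgeR adjusted p = 0.261 and 0.175). Of the mitochondrial pair, mt-Atp8 had 36.3, 51.6 and 53.2 CPM in LPS libraries, against 32.7, 30.8 and 31.5 CPM in control libraries and rose by 0.57 ± 0.14 (edgeR adjusted p = 0.0277). The larger mt-Atp6, which forms the proton channel with the ring, did not pass the test at 0.41 ± 0.14 (edgeR adjusted p = 0.0731). The pair share 43 bases, so they are not separate observations, and their unlike calls are not read as a difference.

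**Figure D5:**
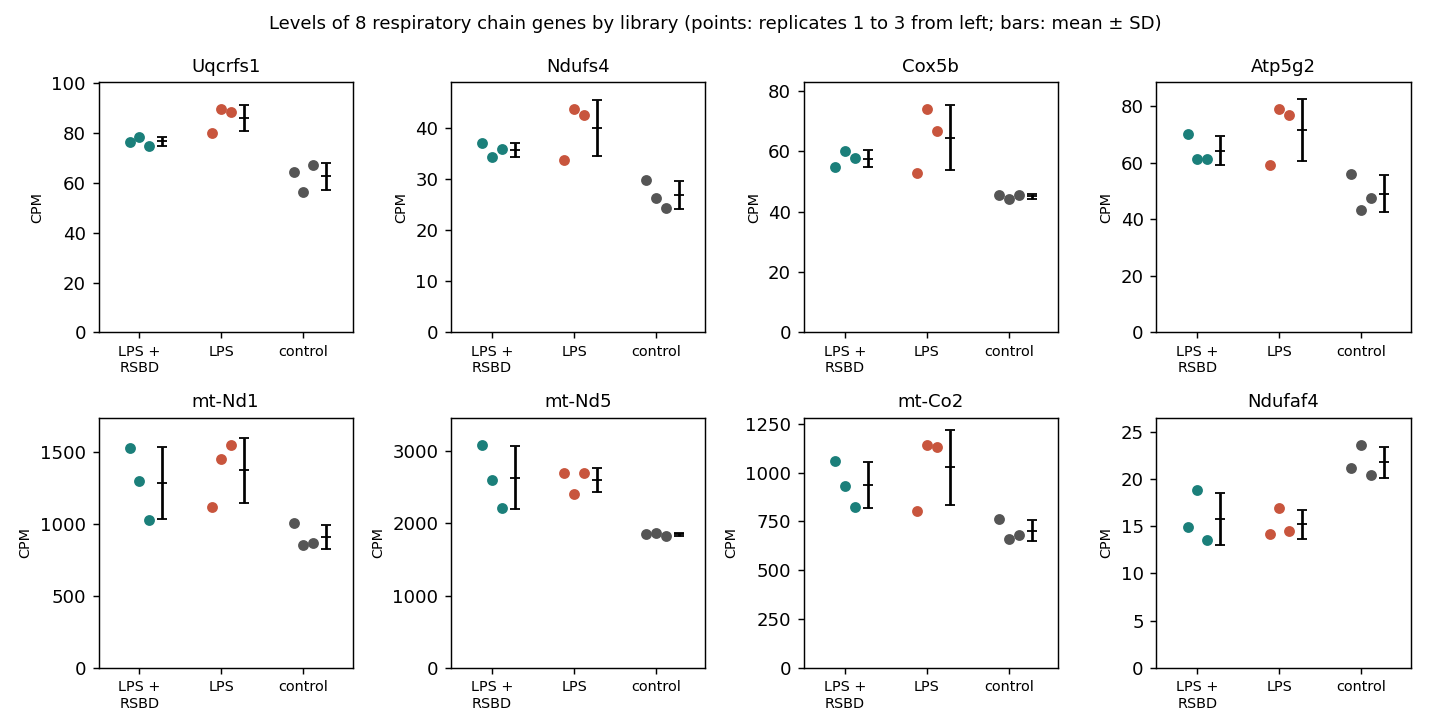
Level in CPM (y axes, from 0) of 8 genes in the 3 groups (x axis); points are replicates 1 to 3 from left to right, and bars are the mean ± SD of 3 libraries. In 7 genes the LPS points lie above the control points, in Ndufaf4 they lie below, and the LPS plus RSBD points lie above control in the first 7 panels.

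Mitochondrial mRNA made up 3.36%, 2.94% and 2.67% of counts in LPS plus RSBD libraries, 2.65%, 2.95% and 3.24% in LPS libraries and 2.46%, 2.25% and 2.21% in control libraries. At these depths the exact Clopper-Pearson 95% interval, which covers counting error only, ran from 3.354% to 3.366% for the highest share and from 2.208% to 2.219% for the lowest. The shares averaged 2.99% ± 0.348 with RSBD, 2.95% ± 0.298 after LPS and 2.31% ± 0.130 in control lungs (SD, n = 3 each), and all control libraries lay below the other 6. The ratio of mitochondrial to nuclear respiratory counts averaged 5.68 ± 0.433 with RSBD, 5.29 ± 0.444 after LPS and 4.96 ± 0.239 in control lungs. The lowest LPS plus RSBD library, at 5.25, lay above the highest control library, at 5.19, while the LPS libraries, at 4.80 to 5.67, overlapped both groups. In every library mt-Co1 alone gave 41.1% to 44.8% of the mitochondrial counts. By the median deviation over 13 genes, the LPS plus RSBD libraries were at 0.29, 0.096 and -0.075, the LPS libraries at -0.085, 0.15 and 0.30 and the control libraries at -0.13, -0.32 and -0.35.

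Adding RSBD to LPS changed none of the 106 genes at an adjusted p under 0.05 by edgeR, DESeq2 or limma. By edgeR 0 of all 15636 genes passed that threshold (0%), while DESeq2 called 96 higher and 63 lower. At an unadjusted p under 0.05, 1 of the 106 genes was lower and none was higher, against 4.04% and 5.38% of all genes. The log2 fold change was at or below 0 for 83 of 93 nuclear genes, with a median of -0.16, and for 7 of 13 mitochondrial genes, with a median of -0.011 that turned to 0.0022 with upper-quartile scaling and 0.0027 with a length offset. Over all genes the median was 0.011, and 52.4% lay above 0. The median standard error of a single gene's change was 0.15. The alveolar macrophage markers summed to 1218, 2168 and 2066 CPM in the LPS plus RSBD libraries, against 2163, 4173 and 3370.2 CPM in LPS libraries. Neutrophil markers summed to 569 to 3223 CPM with RSBD and 2457 to 6798 CPM after LPS alone, and 9 of 11 were lower at an unadjusted edgeR p under 0.05. By the same measure 8 of 12 ciliated cell markers and 9 of 14 cardiac muscle markers were higher and 5 of 15 alveolar macrophage markers lower, with none called by edgeR; DESeq2 called 2 neutrophil markers lower and 1 ciliated marker higher. The part of these cell types in the respiratory values was not tested.

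The gene with the smallest p was Ndufb8, with 43.6, 44.8 and 41.3 CPM in the LPS plus RSBD libraries, against 46.5, 60.2 and 56.2 CPM in LPS libraries. The groups did not overlap, and the change was -0.33 ± 0.11 (edgeR adjusted p = 0.411). Uqcrfs1 had 76.4, 78.5 and 75.0 CPM in the LPS plus RSBD libraries, against 80.0, 89.6 and 88.5 CPM in LPS libraries, with -0.17 ± 0.086 (edgeR adjusted p = 0.582). Together with Cox5b-ps these were the 3 genes whose LPS plus RSBD libraries all lay below the LPS libraries, and no gene lay above, compared with 5.46% and 7.18% of all genes. The next smallest p-values of complex I belonged to Ndufv3 at -0.22 ± 0.11 (edgeR adjusted p = 0.573) and the membrane arm subunit Ndufb7 at -0.23 ± 0.12 (edgeR adjusted p = 0.591).

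In the other complexes the 3 nuclear genes with the smallest p were likewise below 0 with RSBD, apart from Sdha. In complex II Sdha, Sdhb, Sdhd and Sdhc had 0.078, -0.11, -0.094 and -0.037. In complex III Uqcrc2 had -0.13 and the other core subunit Uqcrc1 -0.17. Complex IV was led by Cox6a1 at -0.23, Cox5a at -0.21 and Cox4i1 at -0.21, and complex V by the membrane subunit Atp5l at -0.19, Atp5c1 at -0.17 and the peripheral stalk subunit Atp5h at -0.16. Their edgeR adjusted p-values ranged from 0.582 to 0.940, and none passed. LPS library 1 weighs on these values: without it the nuclear median was -0.28 and the mitochondrial one -0.098, still with no gene called.

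Against control, the LPS plus RSBD lungs also had no gene called among the 106, while 3.7% of all genes passed (1.89% higher, 1.8% lower). DESeq2 called 12 of the 106, and limma none. At an unadjusted p under 0.05, 27 genes were higher (25.5%) and 1 was lower, against 12.3% and 10.4% of all genes. The LPS plus RSBD libraries lay above the 3 control libraries for 46 genes (43.4%) and below them for 1, against 15.4% and 15% of all genes. The median was 0.17 for nuclear genes, with 83 of 93 above 0, and 0.39 for mitochondrial genes, with 13 of 13 above 0, beside 51.9% of all genes. This comparison and that of LPS with control share the 3 control libraries, so the pair are not separate observations.

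The smallest adjusted p belonged to mt-Nd5, with 3089, 2594 and 2212 CPM in the LPS plus RSBD libraries, against 1853, 1863 and 1821 CPM in control libraries. The groups did not overlap, and the change was 0.51 ± 0.13 (edgeR adjusted p = 0.0578). Next came mt-Nd6 with 970.2, 828 and 626 CPM in LPS plus RSBD libraries and a change of 0.54 ± 0.15 (edgeR adjusted p = 0.0677). Among the 13 mitochondrial genes 12 had all LPS plus RSBD libraries above all control libraries, the exception being mt-Nd2 at 0.20 ± 0.14. The values of mt-Nd1, mt-Co1, mt-Co2, mt-Co3 and mt-Cytb were 0.50, 0.34, 0.42, 0.42 and 0.38, and those of mt-Atp6, mt-Atp8, mt-Nd3, mt-Nd4 and mt-Nd4l were 0.37, 0.42, 0.39, 0.38 and 0.35. LPS plus RSBD library 1 was the highest of its group in each of the 13.

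Among nuclear genes Ndufs4 and Uqcrfs1 came closest, with 37.0, 34.3 and 35.9 CPM and 76.4, 78.5 and 75.0 CPM in LPS plus RSBD libraries and changes of 0.41 ± 0.12 (edgeR adjusted p = 0.0807) and 0.29 ± 0.086 (edgeR adjusted p = 0.0855). In complex I they were followed by Ndufa1 at 0.34 and the accessory subunit Ndufa10 at 0.23, in complex III by Uqcrc2 at 0.24 and Uqcr11 at 0.36. Complex IV was led by Cox5b at 0.35, Cox7a2l at 0.41 and Cox7c at 0.31, and complex V by Atp5g2 at 0.39, Atp5e at 0.34 and Atp5g1 at 0.82. Sdha, Sdhb, Sdhc and Sdhd had 0.094, 0.14, 0.14 and 0.16. None passed the test.

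Several subunits of complex IV exist as a general isoform and one restricted to certain tissues, and the lung held both. Cox4i2, the isoform known from lung and from the response to low oxygen, was at 14.3% to 21.6% of the TPM of Cox4i1 in the 9 libraries. After LPS it had 23.9, 40.9 and 35.9 CPM in LPS libraries, against 30.1, 24.6 and 23.0 CPM in control libraries, with 0.38 ± 0.19 (edgeR adjusted p = 0.182), and Cox4i1 had 0.40 ± 0.13 (edgeR adjusted p = 0.0611). Ndufa4l2, a paralog of the complex IV subunit Ndufa4 known from the response to low oxygen, had 15.3, 23.6 and 24.4 CPM in LPS libraries, against 14.4, 12.6 and 12.4 CPM in control libraries. All LPS libraries lay above all controls, and its change of 0.69 ± 0.22 (edgeR adjusted p = 0.0581) missed the threshold. It stood at 9.56% to 16.7% of the TPM of Ndufa4, which had 0.30 ± 0.16 (edgeR adjusted p = 0.214).

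Cox6a2, the isoform of heart and skeletal muscle, had 13.9, 8.29 and 7.45 CPM in LPS plus RSBD libraries, 4.61, 10.1 and 10.5 CPM in LPS libraries and 8.41, 12.0 and 17.5 CPM in control libraries. It was highest in control library 3 and lowest in LPS library 1, and none of its changes passed the test. The 14 listed cardiac muscle markers summed to 787, 391 and 213 CPM with RSBD, 130.4, 191 and 161 CPM after LPS and 156, 292 and 557 CPM in control libraries. In the control libraries and in the LPS plus RSBD libraries Cox6a2 and this sum had the same order. In the LPS libraries their order differed. There Cox6a2 was highest in library 3, at 10.5 CPM, where the sum was 161 CPM, below the group's highest sum of 191 CPM. The part of heart tissue in the samples was not tested. The muscle isoforms Cox7a1 and Cox8b were low, at 0.731% to 5.67% of the TPM of Cox7a2 and 0.831% to 3.10% of that of Cox8a. Cox6b2, known from testis, was at 8.63% to 20.3% of the TPM of Cox6b1 and had a change after LPS of 0.0078 ± 0.20 (edgeR adjusted p = 0.982). The general isoforms Cox6a1, Cox7a2, Cox7b and Cox8a had 0.34, 0.35, 0.34 and 0.36 after LPS, and none passed the test.

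The c ring of complex V is built from identical mature proteins made by 3 genes. Of their summed TPM, Atp5g3 gave 48.1% to 55.2%, Atp5g2 32.3% to 43.0% and Atp5g1 6.36% to 14.2% in the 9 libraries. Atp5g2 rose after LPS, Atp5g3 did not pass the test at 0.27 ± 0.10 (edgeR adjusted p = 0.0917), and Atp5g1 had 23.2, 42.2 and 40.8 CPM in LPS libraries, against 21.4, 28.2 and 14.7 CPM in control libraries. The count-based change of Atp5g1 was 0.72 ± 0.31 (edgeR adjusted p = 0.130), while in TPM the values were 25.2, 30.1 and 31.5 TPM after LPS and 35.9, 51.2 and 28.7 TPM in control libraries. Counts and TPM thus gave opposite signs for this gene, which shares 411 bases with the processed pseudogene Gm10039.

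Sequence shared with other annotated transcripts limits several values. Transcripts of 7 of the 13 mitochondrial and 23 of the 93 nuclear genes, and of 7 of the 25 that changed after LPS, share at least 150 bases at 98% identity or more with another annotated transcript. The nuclear counts are not all copies elsewhere in the genome. They include overlaps with genes on the opposite strand, such as Pdzd9 for Uqcrc2 and Smim27 for Ndufb6. For mt-Co2, mt-Co3, mt-Atp6, mt-Nd3 and mt-Nd4l the nuclear copies cover nearly the whole gene, so their reads may have been placed at either site. Of the 6 mitochondrial genes for which no such transcript was found, mt-Nd1, mt-Nd5, mt-Nd6 and mt-Atp8 rose after LPS. The others, mt-Nd2 and mt-Cytb, did not pass the test (edgeR adjusted p = 0.577 and 0.108). The search covered annotated transcripts and not the whole genome. The last 43 bases of mt-Atp8 lie within mt-Atp6, which has such a copy. Ndufs3, a core complex I subunit with a processed pseudogene copy, varied widely within groups, with 19.3, 25.7 and 5.85 CPM in LPS plus RSBD libraries, 21.8, 30.3 and 9.81 CPM in LPS libraries and 15.6, 7.58 and 14.5 CPM in control libraries. Ndufa7, an accessory subunit, had 1.89 CPM in control library 3, against 15.9 and 16.6 CPM in control libraries 1 and 2. These spreads leave both genes without a readable difference, with changes after LPS of 0.72 ± 0.55 and 0.68 ± 0.59.

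Other genes of the pathway were taken from lists, whose counts stand beside the 8.79% of all genes that rose and the 8.63% that fell after LPS. Among 23 assembly factors of complex IV 5 rose and none fell: Cmc1, Coa4, Pet100, Coa5 and Cox15, the last of which makes haem A, with 0.72 (adjusted p = 0.0118), 0.85 (adjusted p = 0.0153), 0.70 (adjusted p = 0.0193), 0.30 (adjusted p = 0.0360) and 0.36 (adjusted p = 0.0298). For complex III, of 6 factors Uqcc3 rose by 0.58 (adjusted p = 0.0310) and Ttc19 fell by 0.49 (adjusted p = 0.0348). Of 17 further factors for complexes I, II and V none passed edgeR's test, 4 had an unadjusted p under 0.05, and DESeq2 called 2 and limma none. Of 78 mitochondrial ribosomal protein genes 10 rose and none fell, led by Mrps16 at 0.62 (adjusted p = 0.00947), Mrpl30 at 0.46 (adjusted p = 0.0237) and Mrpl53 at 1.28 (adjusted p = 0.0260). The median of that list was 0.19. Its share of genes that rose is a little above that of all genes, while none fell against 8.63% of all genes. At an unadjusted edgeR p under 0.05, 21 were higher and 0 lower, against 17.2% and 17.3% of all genes.

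The shares that rose were close to that of all genes, or below it, among import, citric acid cycle and electron carrier genes. Of 29 import and carrier genes 3 rose, the outer membrane import receptors Tomm20 and Tomm22 at 0.42 (adjusted p = 0.0124) and 0.45 (adjusted p = 0.0188) and the channel Vdac2 at 0.28 (adjusted p = 0.0499), and the matrix chaperone Hspd1 fell, at -0.51 (adjusted p = 0.0118). In the citric acid cycle 1 of 19 genes rose, Suclg1 of succinyl-CoA ligase at 0.37 (adjusted p = 0.0388), and among 19 electron carrier and ubiquinone genes Coq3 rose at 0.67 (adjusted p = 0.0142). Glycolysis had 5 of 22 rows higher, led by Eno1, Pgk1 and Pgam1 at 0.67 (adjusted p = 0.00557), 0.46 (adjusted p = 0.0102) and 0.37 (adjusted p = 0.0127), and 1 lower, Eno2 at -1.42 (adjusted p = 0.0341).

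Genes that express the mitochondrial genome or control the nuclear genes gave no higher call by edgeR, DESeq2 or limma. Of 30 genes for mitochondrial DNA expression none rose, 2 were higher at an unadjusted edgeR p under 0.05, and 1 fell, the DNA polymerase gene Polg at -0.30 (adjusted p = 0.0465) (list median -0.063). Of 19 nuclear regulators none was higher at an unadjusted p under 0.05 either and 2 fell, the deacetylase Sirt1 at -0.42 (adjusted p = 0.0170) and the coactivator Pprc1 at -0.59 (adjusted p = 0.0358) (list median -0.20). Ppargc1a, the best known coactivator of mitochondrial biogenesis, had a change of -0.26 ± 0.18 (adjusted p = 0.335), the mitochondrial transcription factor Tfam 0.19 ± 0.11 (adjusted p = 0.243) and the mitochondrial RNA polymerase Polrmt -0.34 ± 0.11 (adjusted p = 0.0525). The mRNA-stabilizing protein Lrpprc had -0.29 ± 0.11 (adjusted p = 0.0871), the transcription factors Nrf1 and Gabpa -0.11 ± 0.097 (adjusted p = 0.469) and 0.017 ± 0.083 (adjusted p = 0.907), and cytochrome c, Cycs, 0.065 ± 0.10 (adjusted p = 0.693). None of these 7 passed the test. With RSBD against LPS none of the 262 genes of these lists was called by edgeR, and DESeq2 called 1 lower and limma none. At an unadjusted edgeR p under 0.05, 3 of the 262 were higher and 15 lower, against 5.38% and 4.04% of all genes. Against control the LPS plus RSBD lungs had 1 of the 262 higher and 3 lower, against 1.89% and 1.8% of all genes. Coq3 was higher at 0.65 (adjusted p = 0.0383), and Fastkd1, Hspd1 and a row named Gapdh were lower at -0.55 (adjusted p = 0.0383), -0.44 (adjusted p = 0.0449) and -0.96 (adjusted p = 0.0420). The Gapdh row was low, with means of 12.8 CPM with RSBD and 24.9 ± 8.11 CPM in control libraries (SD, n = 3). The 21 glycolysis symbols gave 22 rows, so a symbol can stand for more than 1 row.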

How the data were processed

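Gene expression was measured in 9 mouse lung libraries made with a strand-specific kit and read as pairs of 150 bases, per the labels' protocols. The authors deposited a table of estimated counts per gene, all whole numbers, and a table of TPM values for the same genes. The tools named per the submitters' processing notes, without role or order, were HISAT2 2.2.1 and StringTie 2.2.0, with fastp 0.23.2 and DESeq2 1.38.3, on the build GRCm38 (mm10); which program counted reads, with which strand setting and annotation, is not given in the sources used here. Columns named RS were matched to the libraries titled RSBD. The deposited estimated counts were tested as they stood, since rounding changed none. Genes were kept by edgeR's filterByExpr (minimum count 10, total 15), scaled by TMM and fitted over all 9 libraries with edgeR 4.0.16 in R 4.3.3 (quasi-likelihood test, Benjamini-Hochberg adjustment over all genes tested, threshold 0.05). CPM are the scaled counts. Transcript lengths are medians over GENCODE M21 transcripts, shared stretches between transcripts were found with BLAST+ 2.17.0, and promoter windows come from RefSeq. The edgeR steps were also run on simulated counts with known changes, and the outcome is not reported here. Alternatives were DESeq2 1.42.0, limma 3.58.1 on log2(TPM + 1) and log2(TPM + 0.1), other scalings, no filter, only the 2 groups compared, a replicate block, each library left out, and a transcript length offset added after seeing the data. Members and lists were chosen with earlier results of these data known. By rule the text names the mitochondrial genes, the 3 nuclear genes of each complex with the smallest p in each comparison (all 4 of complex II), the Ndufaf genes called, fixed isoform and regulator sets, and up to 3 called genes per list; every other gene named was chosen after its values were seen.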

Additional observations from a re-analysis of the deposited data

How the results depend on the processing

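With 3 libraries per group the calls rest on few degrees of freedom. Leaving out 1 library moved the calls after LPS between 1 and 66 of 106 (25 with all; 1 to 57 nuclear, 0 to 9 mitochondrial): 66 without LPS library 1, and 1 without LPS library 2 or control library 2. Other settings gave 43 with DESeq2 (31 nuclear, 12 mitochondrial) and 13 with limma on TPM without a filter (12 and 1); mitochondrial calls were 3 with limma on either pseudocount and 3 with the length offset. For LPS plus RSBD against control, where edgeR called none, calls were 0 to 7 when a library was left out (0 to 5 nuclear, 0 to 2 mitochondrial), 1 with only the 2 groups fitted (1 nuclear) and 12 with DESeq2 (4 and 8). Calls for LPS plus RSBD against LPS stayed at 0 under every setting. As a share of summed TPM, mitochondrial mRNA was 5.55% with RSBD, 5.42% after LPS and 4.42% in control lungs. The cause of these shifts was not tested.

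Replicate numbers were tried as a replicate block, which gave 9 calls after LPS (8 nuclear, 1 mitochondrial) and none in the other comparisons. Deviations of same-numbered LPS and control libraries correlated at 0.12, -0.042 and -0.097, and those of differently numbered ones at -0.13 to 0.18. With 3 libraries per group these values cannot decide whether equal numbers mean a pairing.

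Some genes that passed no test changed sign. After LPS, Sdha was -0.0021 to 0.042 when a library was left out (lowest without LPS library 2), -0.10 with limma under each setting and -0.088 with the length offset; Atp5g1 was -0.37 with limma, with or without a filter, and -0.38 with the smaller pseudocount; Cox7a1 was -0.0043 without control library 2 and 1.11 without control library 3. Cox6b2 was -0.019 and -0.10 without control library 1 or 2, -0.090 without LPS library 1, 0.16 without control library 3, -0.082 with limma, -0.084 with the smaller pseudocount and -0.11 with the length offset. Between LPS plus RSBD and LPS, Sdhd was 0.0037 without LPS library 2 and -0.25 without LPS library 1, and Sdhc was 0.011 without LPS library 3 and 0.027 without LPS plus RSBD library 3. Between LPS plus RSBD and control, Sdha was -0.011 with limma under each setting.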
